A study of Mus musculus with 22 samples.

Results

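The clustered protocadherins are 3 neighbouring gene families, alpha, beta and gamma, which lie one after the other on mouse chromosome 18. They were taken as every entry of the deposited tables whose gene symbol begins with Pcdha, Pcdhb, Pcdhga, Pcdhgb or Pcdhgc and goes on with a number or with c for a C-type member. The rule found 59 of 24490 entries. These were 12 alpha members, the C-type alpha members Pcdhac1 and Pcdhac2, 22 beta members, 12 gamma-A members, 7 gamma-B members, 3 C-type gamma members and 1 joint entry, Pcdha4-g, which spans the stretch from the alpha to the gamma cluster. On mm10, the build the deposited positions fall on, the alpha members lie at chromosome 18, 36930285 to 37187660, the beta members at 37264998 to 37521419 and the gamma members at 37661945 to 37841872.

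RNA was sequenced from cortical neurons that were taken from Creb1-/- C57BL/6 mouse embryos at E16.5 and used at 7 days in vitro. Creb1 encodes the transcription factor CREB, and every group, the control included, carried the same deletion. A herpes simplex virus vector delivered CREB with both sites changed to alanine (S40A-S133A), CREB without the phosphorylation site (S133A), CREB without the glycosylation site (S40A), wild-type CREB (WT), or GFP as the control. The 8 h time point had 2 libraries of S40A-S133A, 2 of S133A and 4 each of S40A, WT and GFP, and the 4 h time point had 2 each of S40A, WT and GFP. All cultures had been silenced with 1 µM tetrodotoxin and 100 µM D-AP5 and were depolarized with 55 mM KCl for 2 h. The exons removed from Creb1 and the promoter that drove the viral genes are not given in the sources used here.

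Clustered protocadherins are cadherin-like proteins of the cell surface that bind copies of themselves on other cells. A neuron uses only some of the alternative promoters of each cluster, each with its own first exon, and the combination of isoforms on its surface is known as a label by which branches of the same neuron recognise and avoid each other. In the alpha and gamma clusters every variable first exon is spliced to constant exons that all members of the cluster share, so their transcripts have the same 3′ end. Beta members have no constant exons, and 22 of 22 were annotated with a single exon in GENCODE M21. The C-type members differ from the rest in that many neurons express them without a choice between alternatives. CTCF and cohesin, which fold distant enhancers onto the chosen promoters, are the best known regulators of the clusters, together with DNA methylation by Dnmt3b and silencing by Smchd1.

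The values are FPKM (fragments counted relative to transcript length and sequencing depth), which the authors made with Cufflinks and which were scaled here between libraries by factors from 0.863 to 1.12. The widths of the deposited intervals gave an estimated depth of 17.1 to 32.3 M (mega) fragments per library, with a median of 23.1 M. Creb1 stood at 567 to 2306 scaled FPKM in the 12 libraries with a CREB virus at 8 h, against 9.56 to 14.9 in the 4 GFP libraries, and at 234 to 268 in the 4 CREB libraries at 4 h, against 11.8 and 15.7 in the GFP libraries. No label of CREB or GFP was thus contradicted. These levels cannot tell the CREB forms apart, so labels among WT and the mutant forms were not checked. Library numbers, read from the names of the files, form runs B (replicate 2) and A (replicate 1) at 4 h. At 8 h they form D1 and D2 (all S133A and S40A-S133A libraries and replicates 3 and 4 of the others). The remaining 8 h libraries, replicates 1 and 2 of S40A, WT and GFP, form 1 range of numbers. This range was split by replicate number into C1 and C2, so these 2 runs are assumed and not read from the file names. Replicate 2 of GFP at 8 h was the least similar to the rest (its best correlation was 0.859, while that of the other 21 was 0.916 to 0.943), and 17 of those 21 were most similar to a library of their own run. No library of C2 was most similar to another of C2, and replicates 1 and 2 of S40A at 8 h were most similar to each other. In run A, 13.3 to 13.6% of the entries at 0 carried an upper bound above 0, against at most 0.0263% in the other runs. The 5 general neuron markers (Tubb3, Rbfox3, Map2, Snap25 and Syt1) summed to 614 to 912 scaled FPKM in all libraries, the 8 markers of astrocytes and radial glia to 66.8 to 765, and the 6 of vascular cells and fibroblasts to at most 7.10, and no marker on any list was at 0 in every library.

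Of the 37 alpha and gamma entries, 35 were listed at 0 in all 22 libraries. They include all 12 alpha members, all 12 gamma-A and all 7 gamma-B members, so none of these can be ranked by level, and the C-type members Pcdhac1, Pcdhgc4 and Pcdhgc5. The sources used here do not say how Cufflinks divided fragments from the shared 3′ exons among the members, so a listed 0 is not a measurement that the member was silent. Only Pcdhac2, the last C-type variant of the alpha cluster (37143969 to 37187657), and Pcdhgc3, the first C-type variant of the gamma cluster (37806410 to 37841872), had values.

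Pcdhac2 was either listed at 0 or among the higher values of the clusters, with nothing between. It was listed at 0 in 8 libraries, namely all 6 at 4 h and replicate 1 of WT and of GFP at 8 h, both of run C1. In the other 14 libraries it stood at 64.2 to 89.9 scaled FPKM, with a median of 77.5. Pcdhgc3 took the reverse course, at 159 to 239 scaled FPKM (median 187) in the 8 libraries where Pcdhac2 was at 0 and at 62.6 to 90.2 (median 77.0) in the 14 where it was not. In those 14 libraries the ratio of Pcdhac2 to Pcdhgc3 lay between 0.872 and 1.07, although the genes belong to different clusters.

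The sum of the 2 entries varied much less than either. At 8 h it was 127 to 180 scaled FPKM over 16 libraries, and at 4 h it was 170 to 239 over 6. Within runs C1 and C2 it was 159 and 164 scaled FPKM in the libraries with Pcdhac2 at 0, against 143 to 162 in the 4 with Pcdhac2 above 0, and the 2 ranges overlap. Of all 24490 entries, Pcdhac2 was the only one that was at 0 in these 8 libraries and above 0.5 FPKM in each of the other 14. Fitted differences of Pcdhac2 and Pcdhgc3 between groups are therefore given with the libraries at 0 named, and the part of fragment assignment in them was not tested.

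**Figure D1:**
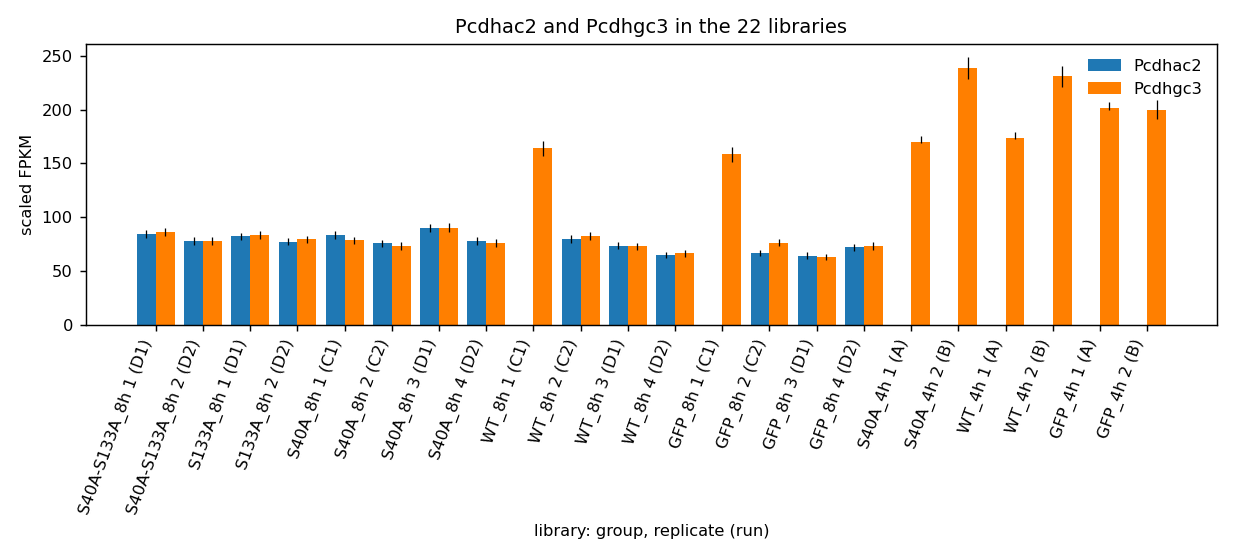
Scaled FPKM of Pcdhac2 and Pcdhgc3 (bars) in each of the 22 libraries, with the deposited 95% interval as a line. Pcdhac2 was listed at 0 in 8 libraries, where Pcdhgc3 reached 159 to 239, and the 2 were at near-equal height in the other 14.

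Within runs D1 and D2, where Pcdhac2 was above 0 in all 10 libraries, the sum of both entries was 170 and 156 scaled FPKM in S40A-S133A, 165 and 156 in S133A and 180 and 154 in S40A, against 146 and 131 in WT and 127 and 145 in GFP. Pcdhac2 alone stood at 84.2 and 78.05 in S40A-S133A, 82.0 and 77.1 in S133A and 89.9 and 77.9 in S40A, against 73.3 and 64.9 in WT and 64.2 and 71.8 in GFP. In these runs all 6 libraries of the mutant forms lay above all 4 of WT and GFP for 5 of 18 members (Pcdhac2, Pcdhgc3, Pcdhb2, Pcdhb18 and Pcdhb22), where 1.95% of the genes tested did so, and below for 0, where 2.17% did so. This grouping was chosen after the values were seen, and the members are correlated. In runs C1 and C2, where S40A is the only mutant form, Pcdhb2 kept this order but the others did not. The sum of Pcdhac2 and Pcdhgc3 was 162 and 149 in S40A, against 164 and 161.6 in WT and 159 and 143 in GFP. The log2 difference of S40A from WT was -0.19 in C1 and -0.12 in C2 for Pcdhb18, and -0.11 in C1 and -0.13 in C2 for Pcdhb22.

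The beta members have an exon each and were listed with values of their own. Whether fragments that match several beta members were counted for the right one was not tested. All 22 had values above 0 in some library, and all were low. Pcdhb17 was the highest (37485021 to 37488290), at 2.78 ± 0.732 scaled FPKM, followed by Pcdhb20 (37504264 to 37507661) at 2.53 ± 0.747 and Pcdhb7 (37341702 to 37345207) at 1.96 ± 0.649 (SD, n = 22 libraries). Pcdhb22, Pcdhb3 and Pcdhb9 followed at 1.76, 1.698 and 1.53. Pcdhb2 (37294840 to 37297614), in the ninth place, stood at 1.29 ± 0.396. Pcdhb1, whose promoter lacks the conserved element that most clustered promoters share, came last at 0.0520 ± 0.0391, with 2 libraries at 0. In this order of levels per length, each beta member differed from the next by less than the larger of their SDs, with the exception of Pcdhb21 (0.581 ± 0.217) over Pcdhb1, where all 22 libraries were higher for Pcdhb21. The deposited 95% intervals had half-widths of 11.1 to 52.1% of the value (median 20.9%) for the beta members other than Pcdhb1, so differences of that size between single libraries are within the counting error of Cufflinks.

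**Figure D2:**
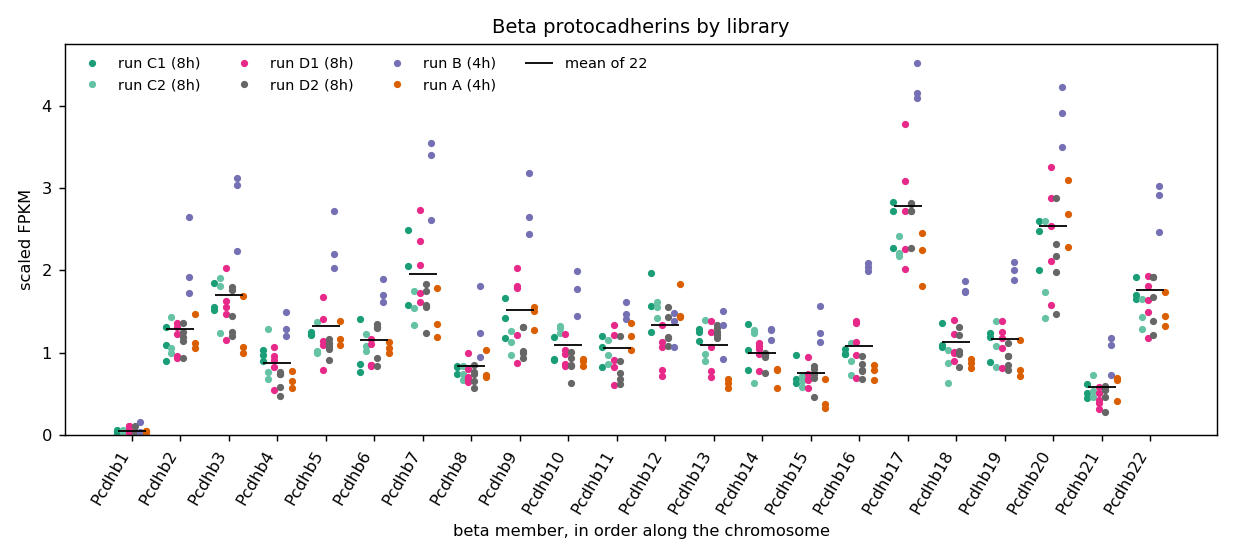
Scaled FPKM of the 22 beta members in order along the chromosome, 1 point per library, coloured by run, with the mean of 22 libraries as a black bar. The 3 libraries of run B (4 h) sit above the rest for most members, Pcdhb17 and Pcdhb20 are the highest, and Pcdhb1 lies near 0.

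Tests were run on log2(scaled FPKM + 1) for the 12097 genes that averaged 1 FPKM or more, which left 16 beta members, Pcdhac2 and Pcdhgc3. Pcdhb1, Pcdhb4, Pcdhb8, Pcdhb14, Pcdhb15 and Pcdhb21 had values but lay below the minimum, which was set on the mean over all libraries. Since these levels are close to the pseudocount of 1 FPKM, the differences on this scale understate the change in level. A gene was called when limma's moderated two-sided test had a Benjamini-Hochberg adjusted p under 0.05 over all 12097 genes.

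The levels of the beta members went up and down together across the libraries. Over the 120 pairs of tested beta members, the correlation of log2 levels over 22 libraries had a median of 0.704 (lowest -0.204, highest 0.923), and after subtraction of each run's mean the median was 0.419. The members share libraries, scaling factors and depth, so this is a description. Pcdhb12 was least like the others, with a median correlation of -0.044, and Pcdhb13, its neighbour on the chromosome, was next with 0.231. Pcdhb16, Pcdhb22 and Pcdhb19 were most like the rest, at 0.845, 0.833 and 0.814.

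The largest difference between libraries in the beta cluster was between the 2 runs at 4 h, and it was found in every virus. The 22 beta members summed to 46.0 scaled FPKM in S40A, 45.1 in WT and 40.1 in GFP in run B, against 22.3 in S40A, 22.2 in WT and 27.9 in GFP in run A. Pcdhb16 stood at 2.00 in S40A, 2.09 in WT and 2.04 in GFP in run B, against 0.671 in S40A, 0.796 in WT and 0.852 in GFP in run A. All 3 libraries of run B were above all 3 of run A for 19 of 22 beta members, where 31% of the 12097 genes tested did so, and they were below for 0 of 22, where 32.8% did so. The exceptions were Pcdhb1, near 0, Pcdhb8, and Pcdhb12, which had a mean of 1.31 ± 0.210 in run B and 1.57 ± 0.226 in run A (SD, n = 3 each). The 22 include 6 members that were not among the genes tested, Pcdhb1 and Pcdhb8 with them. Among the 16 tested beta members Pcdhb12 was the only exception.

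A fit of run B minus run A at 4 h with the virus as a term called 12 of the 17 members with values, all of them beta members and all higher in run B. Of all genes tested, 40.8% were called in this comparison, 19.9% higher and 20.9% lower. Pcdhb16 had a log2 difference of 0.78 (SE 0.05, adjusted p = 0.0057), Pcdhb7 one of 0.78 (SE 0.16, adjusted p = 0.0345), Pcdhb3 one of 0.76 (SE 0.19, adjusted p = 0.0495) and Pcdhb17 one of 0.73 (SE 0.09, adjusted p = 0.0134). The others called were Pcdhb5, Pcdhb6, Pcdhb9, Pcdhb10, Pcdhb13, Pcdhb18, Pcdhb19 and Pcdhb22, at 0.41 to 0.67. Pcdhb2 (0.48, adjusted p = 0.069), Pcdhb20 (0.41, adjusted p = 0.083), Pcdhb11 (0.19, adjusted p = 0.14) and Pcdhb12 (-0.16, adjusted p = 0.20) did not pass. The median over the 16 tested beta members was 0.58, against -0.01 over all genes. Pcdhgc3 was at 239 in S40A, 231 in WT and 200.2 in GFP in run B, against 170.4 in S40A, 173 in WT and 201 in GFP in run A, and its difference of 0.30 did not pass (adjusted p = 0.14).

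This comparison was chosen after the data were seen and rests on 2 residual degrees of freedom. The minimum of 1 FPKM was set on all 22 libraries, run B included, so a member could pass it through its run B values. Pcdhb16 averaged 1.07 FPKM as deposited, with means of 2.04 scaled FPKM in run B and 0.773 to 1.11 in the other runs. With no filter on low values, 6 members were called, and the share of all genes called in that fit is not given here. With FPKM as deposited, the median of all genes moved to -0.25 and that of the beta members to 0.40, 10 members were called higher and Pcdhb12 lower (adjusted p under 0.05), and 18.9% of all calls were higher, against 48.7% with the scaling. Leaving out 1 library also takes the other library of that virus out of the estimate, since the virus is a term, and fewer residual degrees of freedom remain. Without either WT library Pcdhb3 was at 0.658 and Pcdhb10 at 0.477. Without either S40A library they were at 0.615 and 0.497. Counts of members called in such fits cannot show the part of a single library and are not given.

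**Figure D3:**
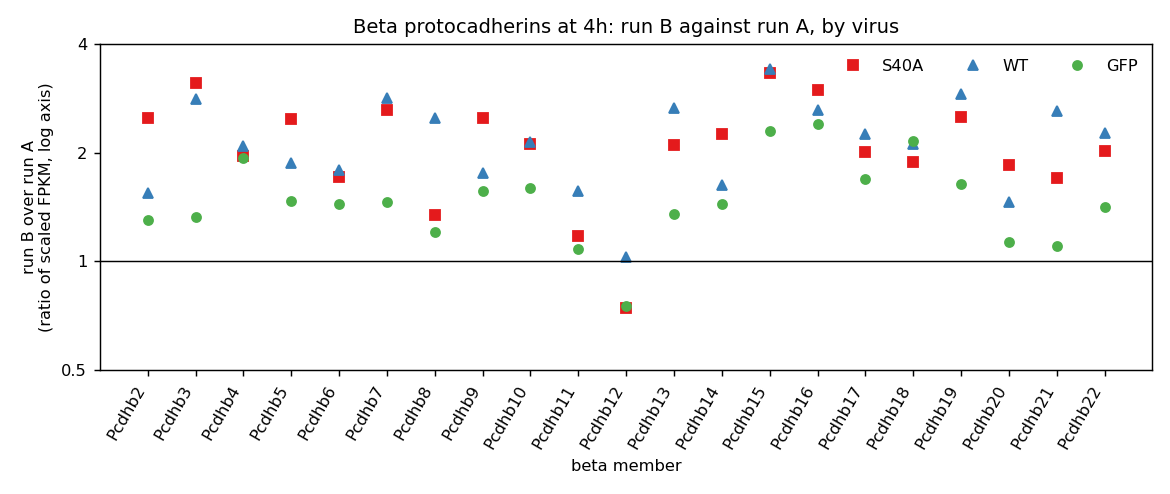
Ratio of run B to run A at 4 h for 21 beta members (Pcdhb1 left out, since 1 library was at 0), on a log axis, with a point for each virus. The ratios lie above 1 for 20 members in all 3 viruses, and only Pcdhb12 has ratios of 0.743 in S40A, 1.03 in WT and 0.752 in GFP.

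The viruses share the direction of this difference in the beta sum, but its size was smaller in GFP. The sum was 40.1 in run B and 27.9 in run A in GFP, against 45.1 and 22.2 in WT and 46.0 and 22.3 in S40A. Other genes also differed between the runs. General neuron markers summed to 767 to 844 scaled FPKM in run B, against 637 to 761 in run A, excitatory markers to 173 to 195 against 132 to 149, inhibitory markers to 173 to 232 against 157 to 217, oligodendrocyte lineage markers to 60.4 to 106 against 52.3 to 79.3, and the 8 markers of astrocytes and radial glia to 170 to 283 in run B, against 243 to 765 in run A. Their part in the result was not tested, and in these bulk samples fewer cells of a type and less RNA per cell cannot be told apart. The upper bounds at 0 in the run A tables differ along the same line, and their part was not tested.

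At 8 h the study asked how CREB that cannot be glycosylated or phosphorylated changes RNA levels. Pcdhb2 was the member with the smallest p in the increases of 6 of the 7 single comparisons. It stood at 1.23 and 1.36 scaled FPKM in S40A-S133A, at 1.32 and 1.26 in S133A, at 1.32, 1.44, 1.37 and 1.20 in S40A and at 1.10, 1.06, 0.941 and 1.14 in WT, against 0.901, 1.00, 0.957 and 0.932 in GFP. All 8 libraries of the mutant forms lay above all 8 of WT and GFP, while WT and GFP overlapped. Of the 18 members Pcdhb2 was the only one with this order, which 0.0579% of the genes tested had, and 0 members had the reverse order, which 0.0496% had. This grouping was chosen after the values were seen. The ratio of mean levels to GFP was 1.37 for S40A-S133A, 1.36 for S133A, 1.404 for S40A and 1.12 for WT. The spread between replicates was small, with an SD of 0.102 in S40A and 0.0415 in GFP (n = 4 each).

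Pcdhb2 did not pass the adjustment over all genes in any of these comparisons. Its log2 difference of S40A from GFP was 0.26 (SE 0.07, 95% interval 0.11 to 0.40, adjusted p = 0.72, limma), and within runs C1, C2, D1 and D2 it was 0.29, 0.29, 0.27 and 0.19. From GFP, S40A-S133A differed by 0.25 (adjusted p = 0.98), S133A by 0.25 (adjusted p = 0.99) and WT by 0.08 (adjusted p = 1). S40A differed from WT by 0.18 (SE 0.07, adjusted p = 1), S40A-S133A by 0.17 and S133A by 0.17.

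Pcdhb3, which follows Pcdhb2 on the chromosome (37300799 to 37304585), had the next smallest p for S40A. It stood at 1.85, 1.81, 2.03 and 1.76 scaled FPKM in S40A, against 1.52, 1.24, 1.15 and 1.25 in GFP, and the groups did not overlap. The difference was 0.32 (SE 0.09, adjusted p = 0.72). WT was at 1.56, 1.91, 1.56 and 1.21 and overlapped both, with a difference from GFP of 0.15 (adjusted p = 1). Pcdhb22 had a difference of 0.34 (SE 0.13, adjusted p = 0.98) between S40A-S133A, at 1.93 and 1.92, and GFP, at 1.18 to 1.65.

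**Figure D4:**
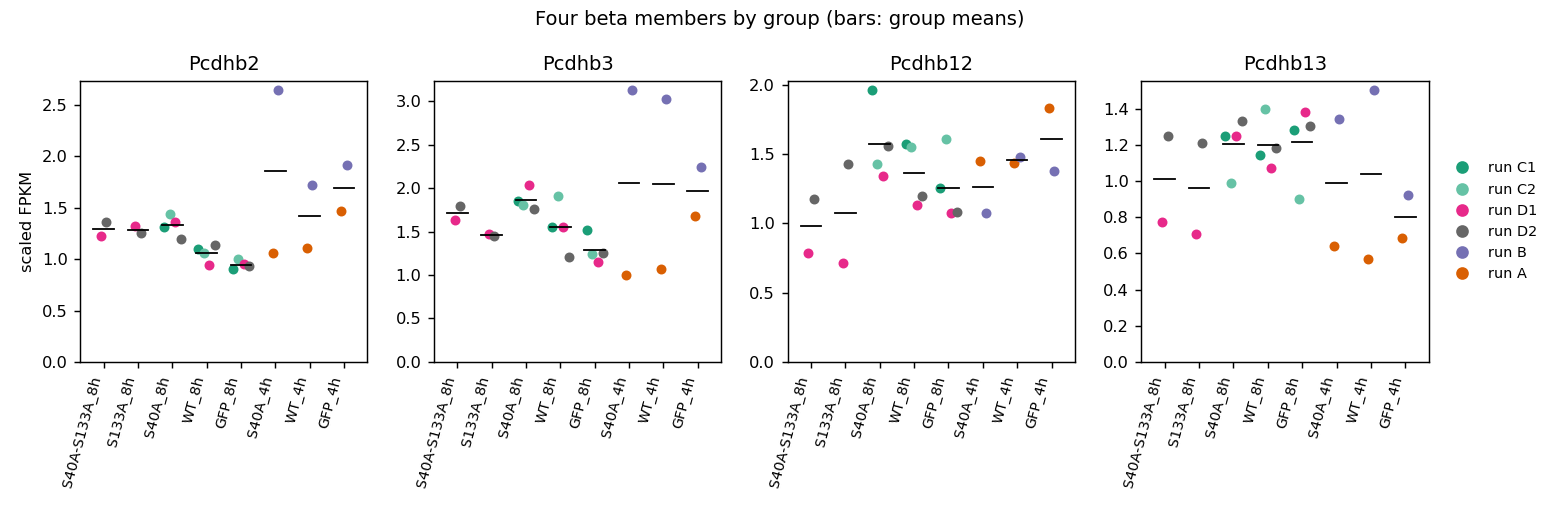
Scaled FPKM of Pcdhb2, Pcdhb3, Pcdhb12 and Pcdhb13 in each library by group, coloured by run, with group means as bars. For Pcdhb2 the 8 libraries of the mutant forms at 8 h, at 1.20 to 1.44, lie above the 8 WT and GFP libraries, at 0.901 to 1.14, and the runs at 4 h lie apart.

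Groups that did not overlap were counted for the members. All S40A libraries lay above all GFP libraries for 3 of 18 members (Pcdhac2, Pcdhb2 and Pcdhb3), where 2.03% of the genes tested did so, and below for 0, where 1.14% did so. For Pcdhac2 this includes the GFP library at 0. All S40A libraries lay above all WT libraries for 1 of 18 members, Pcdhb2, against 1.55% of all genes, and below for 0, against 1.2%. WT lay above GFP for 0 members, against 0.265% of all genes, and below for 0, against 0.231%.

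None of the 18 tested members was called by limma at 8 h. At an unadjusted p under 0.05 there were 3 members for S40A-S133A minus GFP (against 3.497% of all genes) and 1 for S133A minus GFP (2.37%). There were 2 members for S40A minus GFP (5.89%) and 0 for WT minus GFP (1.07%). Against WT there was 1 member for S40A minus WT (4.12%), 0 for S133A minus WT (1.397%) and 0 for S40A-S133A minus WT (1.59%). Few genes of any kind were called: 0.0165% of all tested for S40A-S133A minus GFP, 0.0248% for S133A minus GFP, 0.00827% each for S40A and WT minus GFP, 0% for S40A minus WT, 0.0165% for S133A minus WT and 0.00827% for S40A-S133A minus WT. For all CREB forms together minus GFP, 0 of 18 members were called, against 0.0248% of all genes. An unadjusted p under 0.05 was found for 3 members, against 5.13% of all genes.

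As a description over the 16 tested beta members, most differences from GFP were above 0 for the mutant forms and smaller for WT. Their median log2 difference from GFP was 0.17 for S40A-S133A (13 of 16 above 0), 0.12 for S133A (14 of 16), 0.15 for S40A (15 of 16) and 0.05 for WT (12 of 16). From WT it was 0.13 for S40A-S133A (13 of 16), 0.08 for S133A (11 of 16) and 0.11 for S40A (15 of 16). The comparisons with GFP share the same 4 GFP libraries, and those with WT the same 4 WT libraries. The median over all genes lay between 0 and 0.01 in each of these comparisons, and the members are correlated, so no test is attached to the counts. The sum of the 22 beta members was 27.1 ± 1.64 scaled FPKM in S40A-S133A and 26.4 ± 2.36 in S133A (SD, n = 2 each), and 28.2 ± 3.17 in S40A, 25.1 ± 3.82 in WT and 23.7 ± 2.53 in GFP (SD, n = 4 each). Each group's range overlapped that of GFP, from 21.5 to 27.1.

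These medians moved with single libraries. Leaving out 1 library gave 0.09 to 0.25 for S40A-S133A minus GFP, 0.06 to 0.21 for S133A minus GFP, 0.11 to 0.22 for S40A minus GFP and 0.02 to 0.09 for WT minus GFP. Against WT it gave 0.03 (without replicate 1 of S40A-S133A) to 0.16 for S40A-S133A, -0.0048 (without replicate 4 of WT) to 0.14 for S133A, and 0.02 (without replicate 3 of S40A) to 0.16 for S40A.

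The medians also differed between the runs. For S40A minus GFP the beta median was 0.00 in run C1, 0.07 in C2, 0.38 in D1 and 0.18 in D2. For WT minus GFP it was -0.01 in C1 (7 of 16 above 0), 0.21 in C2 (14 of 16), 0.09 in D1 (12 of 16) and -0.09 in D2 (3 of 16), so no direction held over the runs, and for S40A minus WT it was 0.06 in C1, -0.12 in C2, 0.25 in D1 and 0.26 in D2. For S40A-S133A minus GFP it was 0.30 in D1 and 0.08 in D2, and for S133A minus GFP 0.25 in D1 and 0.03 in D2. Marker lists overlapped between S40A and GFP at 8 h: inhibitory markers summed to 124 to 182 scaled FPKM in S40A and 80.6 to 167 in GFP, astrocyte and radial glia markers to 66.8 to 199 in S40A and 83.3 to 253 in GFP, and their part in the result was not tested.

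**Figure D5:**
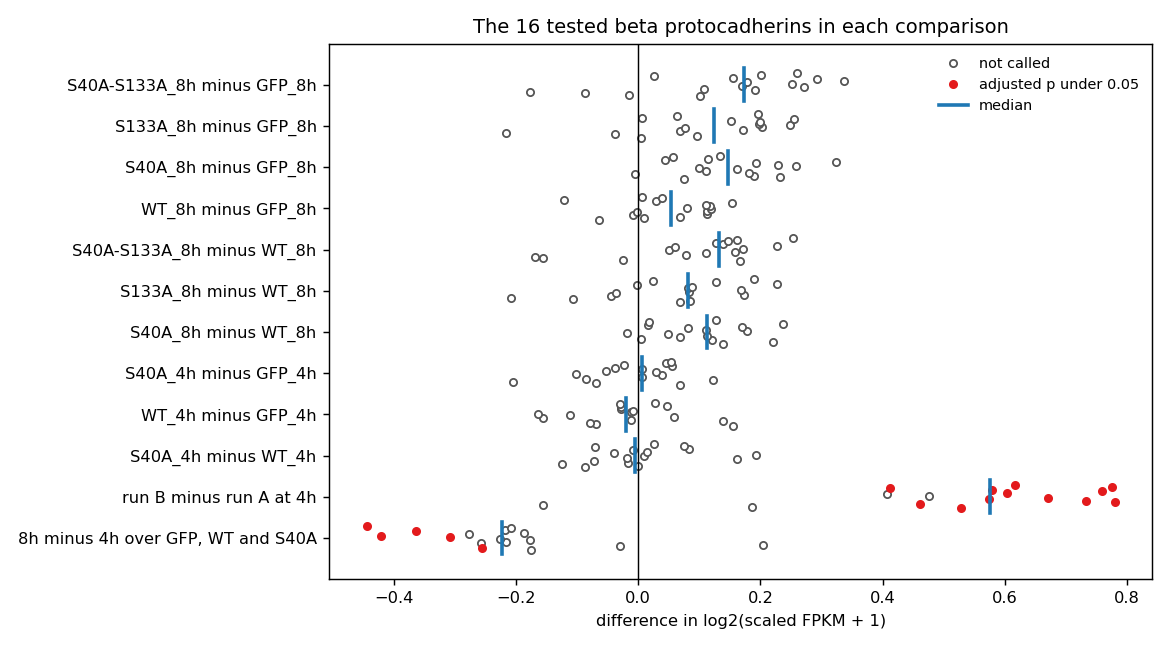
Difference in log2(scaled FPKM + 1) of the 16 tested beta members (points) in 12 comparisons, with the median as a blue bar and called members in red. No member was called between viruses, while 12 were called higher in run B than in run A, and 5 lower at 8 h than at 4 h in a fit without the run, of which 0 were called with it.

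Downward differences at 8 h were led by Pcdhb13 for the forms without S133. It differed by -0.18 between S40A-S133A and GFP (adjusted p = 0.98) and by -0.22 between S133A and GFP (adjusted p = 0.99), and these values came from 1 run. In run D1, Pcdhb13 stood at 0.776 in S40A-S133A and 0.708 in S133A, against 1.25 in S40A, 1.07 in WT and 1.38 in GFP. In run D2 it stood at 1.25 in S40A-S133A and 1.21 in S133A, against 1.33 in S40A, 1.18 in WT and 1.30 in GFP. Pcdhb12 had the same pattern, at 0.786 in S40A-S133A and 0.716 in S133A, against 1.34 in S40A, 1.14 in WT and 1.08 in GFP in run D1, and at 1.18 in S40A-S133A and 1.43 in S133A, against 1.56 in S40A, 1.20 in WT and 1.08 in GFP in run D2.

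These 2 members were thus low in the first replicates of S40A-S133A and S133A and not in the second. Both first replicates were below 0.75 times the lowest of the other 3 libraries of run D1 for 4.39% of all genes tested, and for 2 of 18 members. In run D2 the same held for 0.165% of all genes and 0 members. Astrocyte and radial glia markers summed to 307 scaled FPKM in the first replicate of S40A-S133A and 97.9 in that of S133A, against 66.8 to 253 in the other 3 libraries of run D1, and vascular and fibroblast markers to 1.28 in S40A-S133A and 0.788 in S133A, against 1.39 to 2.49. Their part in the result was not tested. Without these 2 libraries, the difference of Pcdhb13 between S40A-S133A and WT was 0.00147, against -0.17 with them (adjusted p = 1).

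For WT the leading member on the lower side was Pcdhb6, at 0.883 ± 0.138 in WT and 1.06 ± 0.243 in GFP (SD, n = 4 each), with a difference of -0.12 (adjusted p = 1). For S40A it was Pcdhgc3, at 79.4 ± 7.45 in S40A, 96.4 ± 45.6 in WT and 92.6 ± 44.3 in GFP (SD, n = 4 each). The differences of -0.12 from GFP (adjusted p = 0.99) and -0.18 from WT (adjusted p = 1) rest on replicate 1 of GFP and of WT, where Pcdhac2 was at 0. Without the GFP library the difference from GFP was 0.12, without the WT library that from WT was 0.06, and within runs D1 and D2 they were 0.29 and 0.25.

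At 4 h, none of the 17 members with values was called in S40A minus GFP, WT minus GFP or S40A minus WT by limma, and 0 had an unadjusted p under 0.05. Of all genes tested, 0.0909% were called in each of these comparisons. An unadjusted p under 0.05 was found for 0.488%, 0.347% and 0.314% of all genes, in this order. The fit had no term for the run, so the difference between runs is part of its spread and a count of 0 says little. With the replicate block, 0 members were called as well. The beta medians were 0.01 for S40A minus GFP, -0.02 for WT minus GFP and -0.01 for S40A minus WT. With 2 libraries per group, each drawn from a different run, the spread was wide: Pcdhb2 stood at 2.65 and 1.06 scaled FPKM in S40A, at 1.72 and 1.11 in WT and at 1.92 and 1.47 in GFP, for runs B and A in this order. Pcdhb12 had the smallest p on the lower side, at -0.20 for S40A minus GFP, -0.08 for WT minus GFP and -0.13 for S40A minus WT (adjusted p = 1 each). On the higher side these were Pcdhb13 (0.12), Pcdhb10 (0.16) and Pcdhb2 (0.19), in the same order of comparisons and with an adjusted p of 1. Within run B the beta medians were 0.18 for S40A minus GFP and 0.09 for WT minus GFP, and within run A they were -0.17 for S40A minus GFP and -0.19 for WT minus GFP.

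The effect of a virus was also compared between the times. For WT against GFP, S40A against GFP and S40A against WT, the 8 h effect minus the 4 h effect was called for 0 of 18 members by limma, and 0 had an unadjusted p under 0.05. Of all genes, 0.0248%, 0.0165% and 0.0248% were called, and 0.438%, 0.885% and 0.678% had an unadjusted p under 0.05. This fit too had no term for the run, so the difference between runs is part of its spread. With the run as a random effect, 0 members were called as well. The smallest p was that of Pcdhb12 in S40A against GFP, with a difference of 0.39 (SE 0.21, adjusted p = 1), where S40A was at 1.57 ± 0.277 and GFP at 1.26 ± 0.251 at 8 h (SD, n = 4 each), while at 4 h S40A was at 1.08 in run B and 1.45 in run A and GFP at 1.38 in run B and 1.83 in run A. Pcdhb2 (0.24) and Pcdhb10 (-0.22) had the smallest p for WT against GFP, Pcdhb13 (-0.13) on the lower side for S40A against GFP, and Pcdhb6 (0.31) and Pcdhgc3 (-0.19) for S40A against WT, each with an adjusted p of 1.

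Between 8 h and 4 h, over S40A, WT and GFP, 7 of 18 members were called, 1 higher and 6 lower, in a comparison in which 41.7% of all genes were called, 21.4% higher and 20.4% lower. The share of all calls that were higher was 51.2%, and 64.5% with FPKM as deposited. No run held both times, so the time and the run cannot be told apart. Libraries of 1 run are not independent (the consensus correlation within a run was 0.478), so the p-values of this fit, which ignores the run, are too small. With the run as a random effect, 2 of 18 members were called (Pcdhac2 and Pcdhgc3), against 21.6% of all genes, and with 1 mean per run 1 was called (Pcdhgc3), against 11.5%. Both were chosen after seeing the data. Pcdhac2 was higher, at 62.2 ± 30.0 scaled FPKM at 8 h (SD, n = 12) and listed at 0 in all 6 libraries at 4 h, with a fitted difference of 5.19 (adjusted p = 0.0011) that depends on the pseudocount. Pcdhgc3 fell to 89.5 ± 34.3 at 8 h (SD, n = 12), against 202 ± 28.3 at 4 h (SD, n = 6), and the log2 difference was -1.23 (SE 0.21, adjusted p = 0.00039). Its adjusted p was 0.010 with the run as a random effect and 0.037 with 1 mean per run, and that of Pcdhac2 was 0.018 and 0.051. The sum of both was 152 ± 14.8 at 8 h (SD, n = 12) and 202 ± 28.3 at 4 h (SD, n = 6).

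No beta member was called with the run taken into account. The 5 that passed only in the fit without it were Pcdhb9 (-0.44, adjusted p = 0.019), Pcdhb20 (-0.42, adjusted p = 0.027), Pcdhb5 (-0.36, adjusted p = 0.029), Pcdhb2 (-0.31, adjusted p = 0.030) and Pcdhb11 (-0.26, adjusted p = 0.029). With the run as a random effect their adjusted p was 0.11 to 0.21, and with 1 mean per run 0.13 to 0.26. Pcdhb9 was at 0.872 to 1.81 scaled FPKM at 8 h, against 1.27 to 3.18 at 4 h, and the times overlapped. The median over 16 beta members was -0.22, with 15 below 0 and Pcdhb13 above (0.20, adjusted p = 0.14), against -0.02 over all genes. The beta sums show which libraries carry this: they were 20.5 to 32.2 scaled FPKM at 8 h, against 40.1 to 46.0 in run B and 22.2 to 27.9 in run A at 4 h, so run A lay within the range of 8 h. Without 1 library, 2 to 11 members were called. The count was 2 without replicate 2 of GFP at 4 h, 3 without replicate 2 of WT or of S40A at 4 h, and 11 without replicate 1 of S40A at 4 h. Astrocyte and radial glia markers summed to 66.8 to 253 at 8 h and 170 to 765 at 4 h, oligodendrocyte lineage markers to 24.7 to 65.8 at 8 h and 52.3 to 106 at 4 h, and inhibitory markers to 80.6 to 219 at 8 h and 157 to 232 at 4 h, and their part in the result was not tested.

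Genes that act with the clusters were described beside the members. Of 18 regulators of chromatin and promoter choice, 16 were tested, and 0 were called in any comparison between viruses at 8 h or 4 h. Hnrnpu (181 scaled FPKM), a nuclear matrix protein, and Trim28 (107), a corepressor, had the highest levels. In run B minus run A, 10 of 16 were called, against 40.8% of all genes, with 2 higher and 8 lower. With FPKM as deposited, 0 were called higher and 11 lower, so the 2 higher calls depend on the scaling. Those that fell were the cohesin subunits Smc3 (-0.55, adjusted p = 0.031), Smc1a (-0.53, adjusted p = 0.011) and Rad21 (-0.29, adjusted p = 0.023), the cohesin regulator Pds5a (-0.39), the maintenance DNA methyltransferase Dnmt1 (-0.46), the histone methyltransferase Setdb1 (-0.42), the histone demethylase Kdm1a (-0.32) and the zinc finger protein Wiz (-0.26). Hnrnpu (0.45) and Trim28 (0.23) were higher. At 8 h minus 4 h, with 1 mean per run 4 of 16 were called, all lower, against 11.5% of all genes. With the run as a random effect 7 of 16 were called, all lower, against 21.6%. In the fit without the run 8 of 16 were called, against 41.7% of all genes, and all were lower: Rad21 (-0.99, adjusted p = 4.5e-06), Smc1a (-0.62), Smc3 (-0.60), the cohesin loader Nipbl (-0.52), Stag2 (-0.50), Stag1 (-0.49), Dnmt1 (-0.46) and Ctcf (-0.25, adjusted p = 0.020).

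No other protocadherin or adhesion receptor on the lists was called between viruses. Of 12 non-clustered protocadherins, which are single genes elsewhere in the genome, 11 were tested. In run B minus run A, 6 of 11 were called higher and 0 lower, with a median of 0.36, against 40.8% of all genes called. With FPKM as deposited 3 were called higher and 1 lower. The 6 were led by Pcdh8 (2.14, adjusted p = 0.00090), Pcdh19 (1.16), Pcdh17 (0.99) and Pcdh7 (0.76), followed by Pcdh15 (0.36) and Pcdh10 (0.25). At 8 h minus 4 h, with 1 mean per run 2 of 11 were called, both lower, against 11.5% of all genes. With the run as a random effect 2 of 11 were called, against 21.6%. In the fit without the run 3 of 11 were called, against 41.7% of all genes, namely Pcdh20 (-0.96), Pcdh11x (-0.87) and Pcdh10 (-0.44). Of 21 other self-recognition and adhesion receptors, 20 were tested. In run B minus run A, 11 of 20 were called, against 40.8% of all genes. With FPKM as deposited 4 were called higher and 6 lower, where 1145 of all genes were called higher and 4909 lower. The direction thus depends on the scaling. With the scaling 9 rose, among them Fat4 (1.04), Cdh8 (0.76), Ncam1 (0.52), Nrxn2 (0.49), Dchs1 (0.49), Celsr2 (0.44), L1cam (0.42) and Celsr3 (0.34), and 2 fell, Cdh2 (-0.37) and Dscaml1 (-0.33). At 8 h minus 4 h, with 1 mean per run 4 of 20 were called, all lower, against 11.5% of all genes. With the run as a random effect 6 of 20 were called, all lower, against 21.6%. In the fit without the run 8 of 20 were called, against 41.7% of all genes. All 8 were lower, where 20.4% of all genes were called lower: Fat1 (-1.29), Cdh2 (-0.83), the self-avoidance receptor Dscam (-0.60), Cdh4 (-0.57), Cdh13 (-0.54), Dchs1 (-0.50), Ncam1 (-0.42) and Fat3 (-0.37).

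The 22 intracellular partners, which include kinases, actin regulators and proteases known to act on or below protocadherins, did not move one way. In run B minus run A, 13 of 22 were called, against 40.8% of all genes, 9 higher and 4 lower. With FPKM as deposited 5 were called higher and 8 lower, where 1145 of all genes were called higher and 4909 lower. The calls named next are those with the scaling. Those that rose were Nlgn1 (0.67, adjusted p = 0.015), a postsynaptic adhesion protein, Ptk2b (0.59), the kinase PYK2 that protocadherins are known to inhibit, the actin regulators Brk1 (0.58), Abi2 (0.57) and Abi1 (0.23), the protease Adam10 (0.49), Marcks (0.45), Ctnnb1 (0.41) and the kinase Fyn (0.38). Those that fell were Prkcd (-1.89, adjusted p = 0.0035), Rhoa (-0.84), Cyfip1 (-0.57) and Nckap1 (-0.27). At 8 h minus 4 h, with 1 mean per run 1 of 22 was called, against 11.5% of all genes. With the run as a random effect 3 of 22 were called, 1 higher and 2 lower, against 21.6%. With the run ignored, 9 of 22 were called, a share like the 41.7% of all genes. In the fit without the run 3 rose, Ptk2b (1.45, adjusted p = 6.2e-05), Ret (0.49) and Prkca (0.24), and 6 fell, Marcks (-0.48), Nckap1 (-0.46), Ctnnb1 (-0.38), Abi1 (-0.29), Fyn (-0.25) and Axin1 (-0.23). None of the 22 was called between viruses.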

How the data were processed

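The authors deposited 1 table of FPKM values with 95% intervals per library, 24490 entries each. CASAVA 1.7, Bowtie 0.12.2 and Cufflinks, with the builds mm8 and mm10, are named in the submitters' processing notes. Positions fall on mm10 and are counted from 1. Here FPKM was divided by median-of-ratios factors and taken to log2 after adding 1. Of 12118 genes that averaged 1 FPKM or more, 12097 remained once entries with a failed Cufflinks estimate were dropped. limma 3.58.1 in R 4.3.3 fitted the 16 libraries at 8 h with a term for the library set (10 residual degrees of freedom), the 6 at 4 h (3), and the 18 of GFP, WT and S40A for the times (12). Only the fit at 8 h was tested on simulated data, with independent noise and with shifts in genes above the levels of the beta members. Tables and figures used Python 3.11.15, pandas 2.3.3 and matplotlib 3.10.9. At 4 h, replicate numbers pair the libraries: deviations from group means correlated within a run (0.545 to 0.563). With 2 libraries per group the deviations in run A mirror those in run B, so the 6 same-run pairs are not 6 separate observations. Whether replicates came from separate cultures is unstated, so p-values cover only the spread among these libraries, possibly a technical one. Named genes were Pcdhb2, C-type members, the 3 highest members per set, called members and, per comparison, the smallest p in each direction, with called genes of related lists, of which 1 is not reported here. The members and lists were chosen with earlier results of these data known. Alternatives changed scaling, pseudocount, filter, batch term and libraries.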

Additional observations from a re-analysis of the deposited data

Results flagged for a closer look

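In groups of 4 libraries, a value was singled out where its gap to the nearest other exceeded Dixon's 95% limit, which chance does in about 1 of 20 groups. Of 78 such tests on the members and their sums, 6 were past the limit, and all 6 were replicate 1 of WT or GFP at 8 h, both of run C1. Pcdhac2 was at 0 in replicate 1 of GFP, against 64.15 to 71.84 scaled FPKM in the other 3 GFP libraries. Pcdhgc3 was at 158.5 in the same library, against 62.64 to 76.14. In replicate 1 of WT, Pcdhgc3 was at 164.2, against 66.52 to 82.37. Among beta members, replicate 1 of GFP had Pcdhb7 at 2.054 scaled FPKM, against 1.548 to 1.62, and Pcdhb19 at 1.244, against 0.8211 to 0.8473. Replicate 1 of WT had Pcdhb8 at 0.8278, against 0.6406 to 0.6713.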

How the results depend on the processing

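In 14 comparisons the count of called members was 0 and stayed 0, which says little about stability. In the other 2, run B minus run A and 8 h minus 4 h, 23 of 34 recomputed counts stayed within 1.5 times the value given and 11 did not. Of 328 medians 311 moved by less than the spread between replicates, and 783 of 886 single-member results kept direction and call. The replicate block at 8 h, where only 11 of 26 same-run pairs correlated above 0.1, called 0 members in each comparison, and it also called 0 at 4 h. Pcdhb2 in S40A minus GFP at 8 h had an adjusted p of 0.28 with the replicate block. In runs D1 and D2 alone, with the replicate block, Pcdhgc3 was at 0.286 for S40A minus GFP and 0.249 for S40A minus WT. Leaving out 1 library gave -0.274 to 0.122 and -0.333 to 0.0593 for these. Pcdhb13 in S40A-S133A minus WT was at 0.00147 without both first replicates of the S133A forms, and at -0.338 to 0.00147 with 1 library left out. At 4 h, leave-one-out ranges were -0.161 to 0.472 for Pcdhb10 and -0.205 to 0.0470 for Pcdhb12 (WT minus GFP), -0.134 to 0.380 for Pcdhb13 (S40A minus GFP) and -0.218 to 0.604 for Pcdhb2 (S40A minus WT), and member medians ranged from -0.25 to 0.298, from -0.359 to 0.346 and from -0.325 to 0.348 in the same comparisons. For the effects compared between times, they were -0.536 to 0.0963 for Pcdhb10, -0.385 to 0.129 for Pcdhb13 and -0.435 to 0.0939 for Pcdhgc3. Run B minus run A had a member median of 0.873 with a pseudocount of 0.1, and of 0.484 to 0.613 with 1 library left out. With no filter on low values 6 members were called. For 8 h minus 4 h, 2 to 11 members were called with 1 library left out, 2 with the run as a random replicate block and 1 with 1 mean per run as the block. The cause of these changes was not tested. Levels near 1 FPKM limit the beta members, since the deposited 95% intervals have a median half-width of 20.9% of the value.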
